A study of Mus musculus with 4 samples.

Results

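The genes described here build and regulate the contractile actin cytoskeleton, together with serum response factor (SRF), the transcription factor that switches many of them on. They were named as a list of 39 gene symbols. A gene was read from a probe set (the group of array probes that reports one transcript) annotated to that symbol alone, and where several existed the one with the highest mean over the arrays was taken. This gave 38 measured genes of the 18820 tested. The remaining gene, Actn4, a non-muscle alpha-actinin, shared its only probe set with Capn12. That probe set read 11.30 and 11.35 in the wild type, against 11.21 and 11.20 in the knockout, and it was not tested.

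The samples were cultures of mouse embryonic stem cells, which renew themselves and can form the tissues of the embryo. One group of 2 arrays, KAP_WT, carried a wild-type genotype, and the other group of 2 arrays, KAP_KO, was the KAP1 fl/fl knockout. KAP1 is the product of Trim28 and silences chromatin where KRAB zinc finger proteins bind. All 4 samples are labelled as treated with 4-hydroxytamoxifen, which induces the deletion. The protocol gives 24 h of it, or of ethanol as vehicle, and then 48 h without. The study's design text, in contrast, speaks of cells before and after the knockout, so whether the wild type is the same line undeleted or another line is not settled by the labels. The cells grew on irradiated embryonic fibroblasts, and no step that removes these feeder cells is described. The source of Cre is not described. The labels call the samples biological replicates without saying whether cultures or lines were separate or how many clones each group holds. So p-values measure the spread between these samples, and a difference between lines cannot be told apart from the loss of KAP1. In such bulk RNA, more cells of one type and more RNA per cell cannot be told apart.

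Values were log2 array values, on which a difference of 1 is a 2-fold change. The 2 arrays of a group had a Pearson's r of 0.994 (wild type) and 0.995 (knockout) across probe sets, and probe sets are no replicates of each other. Trim28 read 11.29 and 11.37 in the wild type, against 8.97 and 8.92 in the knockout, so the targeted gene was lower where the labels say it was deleted. Of 13 embryonic stem cell markers, 8 fell, 3 of them at least 2-fold, and 1 rose, beside 12.7% and 14.2% of all genes. The mean level of these markers was 10.22 and 10.20 on the wild-type arrays, against 9.82 and 9.55 on the knockout arrays. Both groups thus carried them well above the array medians of 5.46 to 5.66, and the knockout at a lower level.

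In muscle and in motile cells, myosin II pulls on actin filaments that tropomyosin and caldesmon coat, that calponins and transgelins bind, and that filamin, alpha-actinin, vinculin and zyxin tie to each other and to adhesions. Unassembled actin holds the coactivators Mkl1 and Mkl2 (also called Mrtfa and Mrtfb) in the cytoplasm. When actin assembles they reach the nucleus and join SRF at a short DNA element, the CArG box, in front of many of the genes described here, Srf included.

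Most of these genes were higher in the knockout. The list was chosen with earlier results of these data known, so its shares beside those of all genes are descriptions. In limma's fit across all genes, at a Benjamini-Hochberg adjusted p under 0.05, 28 of the 38 measured members rose and 0 fell, against 14.2% of all genes tested that rose and 12.7% that fell. At an unadjusted p under 0.05, 29 members were higher and 1, Tagln2, was lower. With array medians subtracted, which moves the median change of all genes from -0.05 to -0.22, 25 members rose and 4 fell (Tagln2, Cnn3, Pdlim1 and Csrp2). In that setting 2065 of all 18820 genes rose and 6392 fell. A rise of at least 2-fold was found for 15 members, beside 4.44% of all genes, and a fall of that size for 0 members, beside 1.46%. The median change was 0.72 over the members and -0.05 over all genes. The 2 wild-type values and the 2 knockout values did not overlap in 35 members, with 31 higher in the knockout, where 26.6% of all genes were so ordered, and 4 lower, where 38.6% were. The changes ran from -0.31 for Tagln2 to 4.65 for Acta2. Leaving out wild-type replicate 1 or 2 gave a median change of 0.70 and 0.73 over the members, against -0.05 over all genes each time. Fewer members, and fewer of all genes, then passed, as given in the last section.

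**Figure D1:**
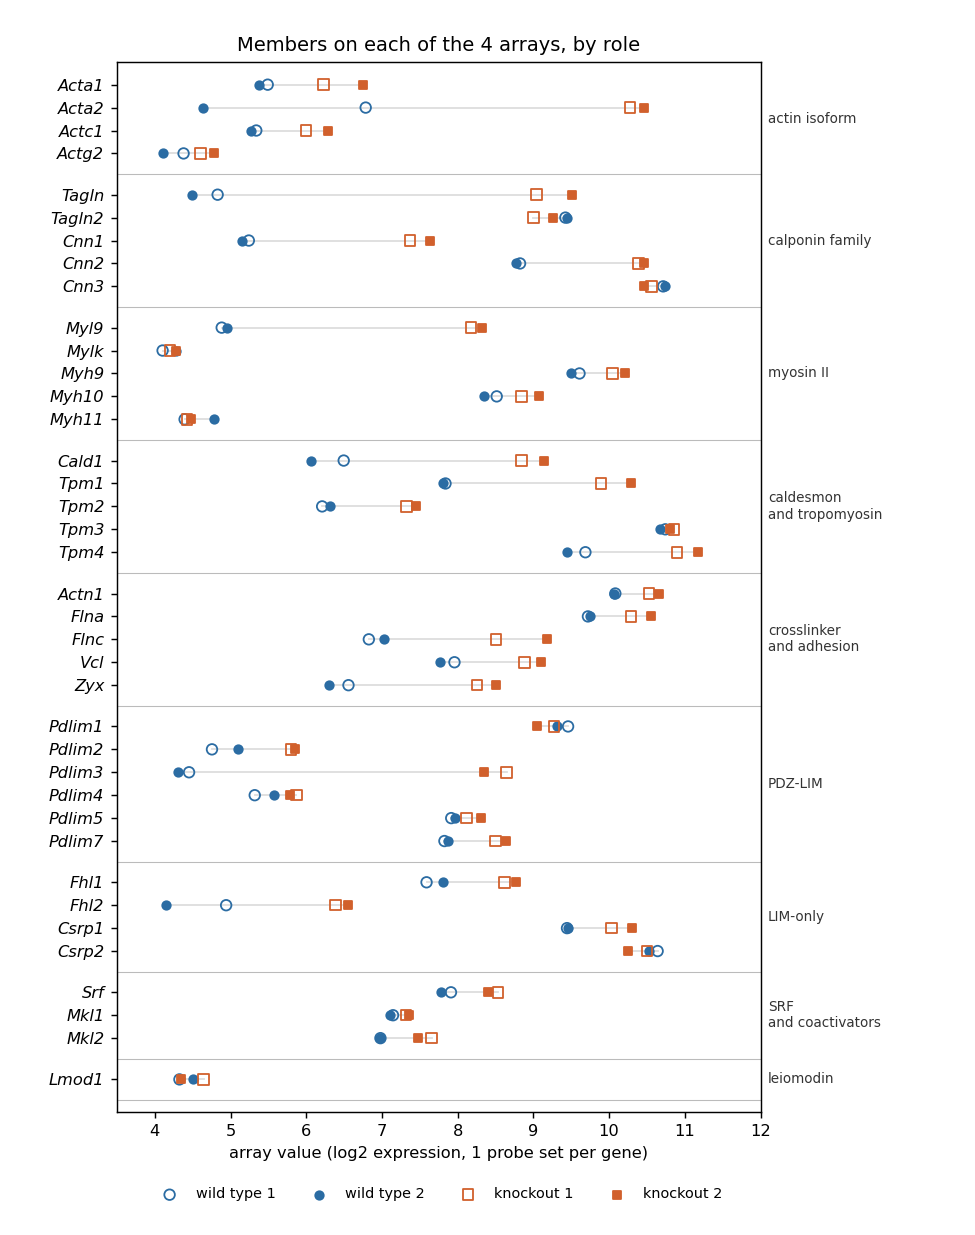
Array values (log2, horizontal axis) of the 38 measured members on each of the 4 arrays, grouped by role; blue circles are the wild-type arrays and orange squares the knockout arrays, and replicate 1 is open. In 31 rows both squares lie to the right of both circles, and the wild-type circles of Acta2 lie furthest apart, at 6.78 and 4.64.

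Of SRF and its coactivators, which act on many of the others, 2 of 3 rose. Srf read 7.91 and 7.79 on the wild-type arrays, against 8.53 and 8.41 on the knockout arrays. The groups were apart, and the rise was 0.62 (log2; SE 0.10, adjusted p = 0.00503 in limma). That is 1.54-fold, with a 95% confidence interval of 1.30 to 1.81. The coactivator gene Mkl2 read 6.98 on both wild-type arrays, against 7.66 and 7.48 in the knockout, a rise of 0.59 (SE 0.10, adjusted p = 0.00620). Its other 2 probe sets differed by 0.56 and 0.35. Mkl1 read 7.15 and 7.11 in the wild type, against 7.32 and 7.36 in the knockout. Its change of 0.21 did not pass (SE 0.09, adjusted p = 0.138, interval of the fold 0.997 to 1.34). The calls of Srf and Mkl2 were near the threshold with 1 wild-type array fewer: without wild-type replicate 2 the adjusted p was 0.0530 for Srf and 0.0569 for Mkl2, and without replicate 1 it was 0.0330 and 0.0546.

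Because the list was named in part for SRF targets, the stretch in front of each gene was searched for the CArG box. Of the 38 measured members, 33 had a promoter window in the RefSeq tables (build GRCm38.p6; 250 bases before the annotated start and 50 after it). An exact CArG box stood in the windows of 8 members (24.2%) and in those of 1.81% of all 27025 genes with a window; the pattern reads the same on both strands. All 8 were among the 25 rising members with a window, and 0 were among the 8 that did not pass. Since SRF sites were part of how such gene lists came about, this share is a description and no independent evidence. With 1 letter off allowed, the shares were 54.5% and 23.8%, so a match of that kind is common. A match is not a measured binding site, and no match says only that these letters are not in the window.

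The following stretches show the box, in capitals, in the 6 rising members with the largest change that hold an exact match, then in Srf itself, and last the 1-letter-off matches of Acta2, the gene with the largest rise. All run 5′ to 3′ on the gene's strand and end before the annotated start; Fhl2 has 2 starts with a box.
Myl9 (chr2:156775258-156775357, plus strand): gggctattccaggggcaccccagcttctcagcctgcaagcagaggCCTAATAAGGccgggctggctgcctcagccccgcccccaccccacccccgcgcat
Fhl2, first start (chr1:43196803-43196902, minus strand): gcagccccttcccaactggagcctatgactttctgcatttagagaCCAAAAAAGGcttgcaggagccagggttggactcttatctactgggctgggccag
Fhl2, second start (chr1:43163962-43164037, minus strand): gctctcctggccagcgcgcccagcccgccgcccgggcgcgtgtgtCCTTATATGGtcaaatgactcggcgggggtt
Cnn2 (chr10:79988499-79988598, plus strand): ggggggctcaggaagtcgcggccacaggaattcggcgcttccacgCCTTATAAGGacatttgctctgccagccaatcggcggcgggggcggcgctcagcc
Vcl (chr14:20929148-20929225, plus strand): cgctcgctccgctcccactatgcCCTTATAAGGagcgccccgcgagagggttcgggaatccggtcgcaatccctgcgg
Acta1 (chr8:123894794-123894893, minus strand): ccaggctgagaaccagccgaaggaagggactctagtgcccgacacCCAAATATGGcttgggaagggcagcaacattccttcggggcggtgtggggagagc
Fhl1 (chrX:56779536-56779635, plus strand): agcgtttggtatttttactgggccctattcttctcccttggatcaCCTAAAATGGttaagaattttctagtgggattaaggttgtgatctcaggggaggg
Srf (chr17:46556170-46556289, minus strand): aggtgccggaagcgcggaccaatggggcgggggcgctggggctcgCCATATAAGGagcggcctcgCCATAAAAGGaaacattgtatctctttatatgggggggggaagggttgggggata
Acta2, 1 letter off (chr19:34255374-34255502, minus strand): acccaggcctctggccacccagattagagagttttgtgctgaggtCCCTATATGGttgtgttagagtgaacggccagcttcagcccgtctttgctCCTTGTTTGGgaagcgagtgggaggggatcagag
The 2 boxes of Srf begin 82 and 62 bases before the start, those of Cnn2 and Vcl have the same letters at 56 and 227 bases, and the 2 stretches of Acta2 begin 84 and 34 bases before it. The remaining member with an exact box was the cardiac actin gene Actc1, 47 bases before its start.

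All 4 muscle actin genes rose on their probe sets, and by very different amounts. Which actin transcripts each of these probe sets reports was not tested. Acta2, which encodes smooth muscle alpha-actin and marks contractile cells, read 6.78 and 4.64 in the wild type, against 10.27 and 10.46 in the knockout. The knockout arrays agreed to within 0.18 and the wild-type arrays differed by 2.15. The rise was 4.65 (SE 0.59, limma adjusted p = 0.00191), or 25.2-fold with an interval of 9.41 to 67.3. Against wild-type replicate 1 alone it was 3.58 (adjusted p = 0.00541), and against replicate 2 alone 5.73 (adjusted p = 0.00433). In fits with 1 wild-type array the spread comes from the 2 knockout arrays and limma's prior, so those p-values leave out the difference between the wild-type arrays. Acta1, skeletal alpha-actin, read 5.49 and 5.38 in the wild type, against 6.23 and 6.75 in the knockout. Its rise of 1.05 (SE 0.17, adjusted p = 0.00508) lost its call without wild-type replicate 1 (adjusted p = 0.0539) or 2 (0.0694). Actc1, cardiac alpha-actin, read 5.34 and 5.26, then 5.99 and 6.28, a rise of 0.84 (adjusted p = 0.00298). Actg2, smooth muscle gamma-actin, stayed below the array medians in both groups. It read 4.38 and 4.11, then 4.60 and 4.78, a rise of 0.45 (adjusted p = 0.0389). It did not pass without wild-type replicate 1 or 2 or knockout replicate 2 (adjusted p = 0.0557, 0.193 and 0.149). The widely expressed cytoplasmic actin genes outside the list, Actb and Actg1, had differences of 0.11 and 0.22 and did not pass (adjusted p = 0.483 and 0.151).

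Of the 5 transgelin and calponin genes, 3 rose and 2 did not pass. Tagln (transgelin, SM22), an actin-binding protein of smooth muscle, read 4.83 and 4.50 in the wild type, against 9.04 and 9.51 in the knockout. Its rise of 4.61 (SE 0.18, limma adjusted p = 3.59e-05) was 24.5-fold, with an interval of 18.1 to 33.1. Cnn1, smooth muscle calponin, read 5.24 and 5.15, then 7.37 and 7.63, a rise of 2.30 (SE 0.12, adjusted p = 7.10e-05). Cnn2, found in many motile cells, read 8.82 and 8.77, then 10.39 and 10.46, a rise of 1.63 (SE 0.09, adjusted p = 9.33e-05). The relatives Tagln2 and Cnn3 differed by -0.31 (interval -0.58 to -0.03, adjusted p = 0.0955) and -0.22 (interval -0.44 to 0.00, adjusted p = 0.132). Both were lower on each knockout array than on each wild-type array. Tagln and Cnn1 thus passed from below the median of the tested genes (5.46 and 5.48 on the wild-type arrays) to well above it (5.66 and 5.63 on the knockout arrays), and Tagln2 and Cnn3 were above it in both groups.

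Among the 5 myosin genes the light chain moved most. Myl9, the regulatory light chain of smooth muscle and non-muscle myosin, read 4.88 and 4.95 in the wild type, against 8.18 and 8.32 in the knockout. The rise was 3.33 (SE 0.10, limma adjusted p = 1.63e-05), 10.1-fold with an interval of 8.57 to 11.8. The non-muscle heavy chains rose less, Myh9 by 0.57 (adjusted p = 0.00753) and Myh10 by 0.53 (adjusted p = 0.0172). Myh9 did not pass without wild-type replicate 2 (adjusted p = 0.0693), and Myh10 did not pass without wild-type replicate 1 or 2 or knockout replicate 2 (0.0624, 0.123 and 0.0721). The smooth muscle heavy chain gene Myh11 read 4.39 and 4.78 in the wild type, against 4.42 and 4.47 in the knockout, a difference of -0.14 (interval -0.47 to 0.19, adjusted p = 0.514). Mylk, the kinase that activates the light chain, read 4.10 and 4.28, then 4.20 and 4.29, a difference of 0.05 (interval -0.20 to 0.30, adjusted p = 0.778). Both stayed below the array medians in both groups.

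Caldesmon and 3 of the 4 tropomyosin genes, whose products lie along the actin filament, rose at least 2-fold. Cald1 (caldesmon) read 6.49 and 6.06 in the wild type, against 8.84 and 9.14 in the knockout, a rise of 2.72 (SE 0.17, limma adjusted p = 1.31e-04). Tpm1 read 7.84 and 7.80, then 9.89 and 10.28, a rise of 2.27 (SE 0.14, adjusted p = 1.22e-04). Tpm2 read 6.21 and 6.32, then 7.32 and 7.45, a rise of 1.12 (SE 0.10, adjusted p = 4.50e-04). Tpm4 read 9.69 and 9.44, then 10.90 and 11.18, a rise of 1.48 (SE 0.13, adjusted p = 5.28e-04). Every one of these 4 genes had groups that did not overlap, and each kept its call with any 1 array left out. Tpm3 differed by 0.13 (interval -0.09 to 0.35, adjusted p = 0.354).

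The value of Tpm3 depends on the probe set. It has 7 single-gene probe sets, and probe set identifiers on this array are grouped by chromosome. For 94.7% of 21121 single-gene probe sets, the chromosome most frequent among the nearest identifiers was the gene's own. Tpm3 lies on chromosome 3, yet 18 of the 20 nearest identifiers of the probe set used were of chromosome 14 genes, and those of 5 others were mostly of chromosome 7. The 1 probe set among chromosome 3 identifiers read 5.38 and 5.33 in the wild type, against 5.76 and 5.69 in the knockout. It rose by 0.37 (adjusted p = 0.0245). Tpm4, Cnn3 and Pdlim1 also have a probe set of either kind. Tpm4 rose by 1.67 on the probe set among identifiers of its own chromosome, against 1.48 above. For Pdlim1 that probe set read 9.55 and 9.49, then 9.06 and 8.94, a fall of 0.52 (adjusted p = 0.00805), where the one used differed by -0.23. Which transcripts such probe sets report was not tested. With the probe sets among each gene's own chromosome, a choice made after seeing the data, 29 members rose and 1 fell.

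All 5 measured crosslinker and adhesion genes rose. Zyx (zyxin), a LIM protein of focal adhesions and stress fibres, read 6.56 and 6.30 in the wild type, against 8.26 and 8.51 in the knockout, a rise of 1.95 (SE 0.13, limma adjusted p = 1.68e-04). Flnc, the muscle filamin, read 6.83 and 7.03, then 8.51 and 9.18, a rise of 1.91 (SE 0.21, adjusted p = 0.00104). Vcl (vinculin), which links adhesions to actin, read 7.96 and 7.76, then 8.88 and 9.10, a rise of 1.13 (SE 0.12, adjusted p = 8.82e-04). The knockout arrays differed by 0.67 for Flnc, with replicate 2 higher, and the groups of these 3 genes did not overlap. The widely expressed Flna (0.69, adjusted p = 0.00567) and Actn1 (0.52, adjusted p = 0.00816) rose by less than 2-fold. Both had an adjusted p between 0.0565 and 0.0644 with either wild-type array left out.

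Among the PDZ-LIM genes, whose products sit on alpha-actinin at actin fibres, 4 of 6 rose. Pdlim3 (actinin-associated LIM protein, a muscle member) read 4.45 and 4.31 in the wild type, against 8.65 and 8.35 in the knockout. It rose by 4.12 (SE 0.13, limma adjusted p = 1.63e-05), 17.4-fold with an interval of 14.1 to 21.4. The next were Pdlim2 (0.90, adjusted p = 0.00323), Pdlim7 (0.72, adjusted p = 0.00228) and Pdlim4 (0.38, adjusted p = 0.0465). Pdlim4 did not pass with any 1 of the 4 arrays left out (adjusted p of 0.0560 to 0.201). Pdlim5 differed by 0.27 (interval 0.02 to 0.51, adjusted p = 0.105) and Pdlim1 by -0.23 (interval -0.50 to 0.04, adjusted p = 0.197) on the probe set used.

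Of the 4 LIM-only genes 3 rose. Fhl2, a LIM coregulator induced through SRF, read 4.94 and 4.15 in the wild type, against 6.39 and 6.55 in the knockout, a rise of 1.92 (SE 0.24, limma adjusted p = 0.00169). Its wild-type arrays differed by 0.79, and the rise was 1.53 against replicate 1 alone and 2.32 against replicate 2 alone. Fhl1, of skeletal and heart muscle, read 7.59 and 7.81, then 8.62 and 8.77. Its rise of 0.99 (adjusted p = 0.00128) lies just under 2-fold, next to that of Acta1 just above it. Csrp1, a smooth muscle LIM protein, rose by 0.72 (adjusted p = 0.00491; 0.0545 and 0.0540 without wild-type replicate 1 or 2), and its relative Csrp2 differed by -0.22 (interval -0.49 to 0.06, adjusted p = 0.228). Lmod1, which starts actin filaments in smooth muscle, read 4.32 and 4.51 in the wild type, against 4.64 and 4.35 in the knockout and did not pass (0.08, interval -0.23 to 0.39, adjusted p = 0.694).

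**Figure D2:**
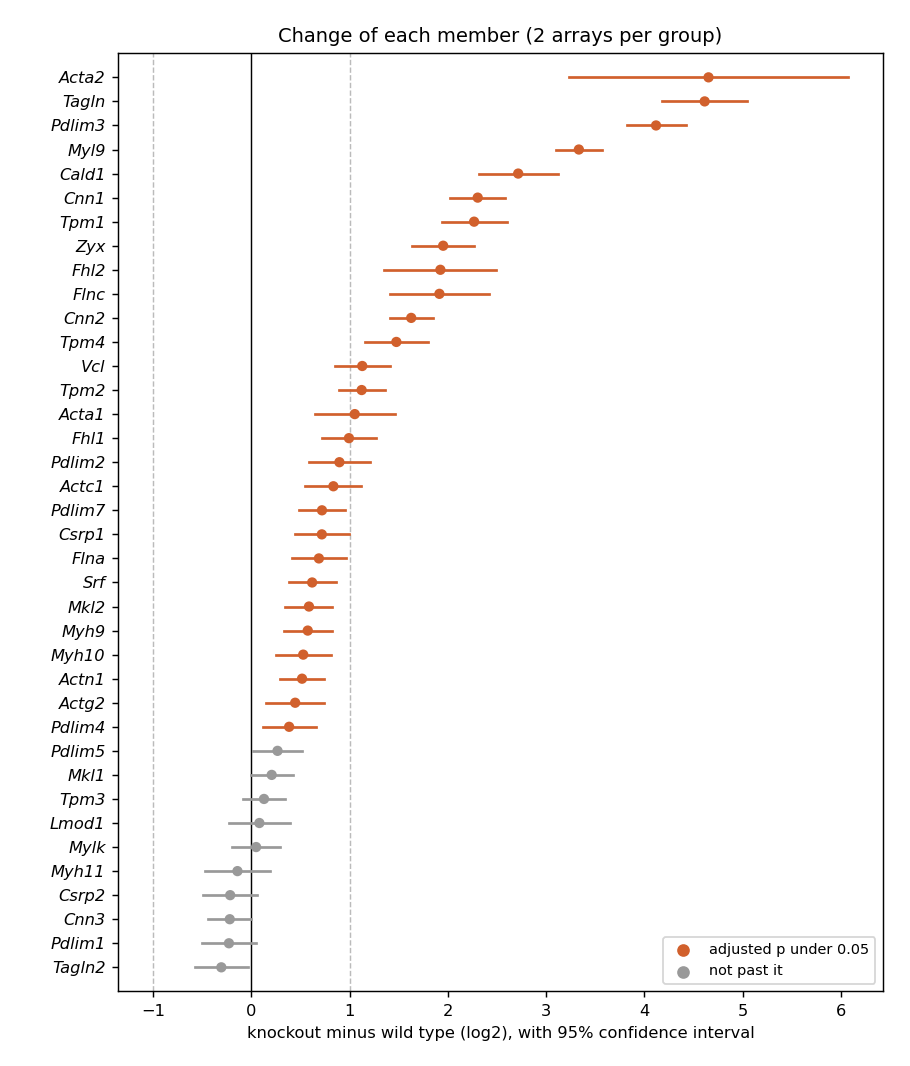
Knockout minus wild type (log2, horizontal axis) for each of the 38 members in order of size, with the 95% confidence interval of limma's fit on 2 arrays per group; orange marks an adjusted p under 0.05, and the dashed lines mark 2-fold. Orange intervals all lie above 0, and that of Acta2 is the widest, from 3.23 to 6.07.

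The size of the change varied within families. Tagln, Cnn1, Cnn2, Tpm1, Tpm2, Tpm4 and Pdlim3 rose at least 2-fold, and Tagln2, Cnn3, Tpm3, Pdlim1 and Pdlim5 did not pass; differences between the members of a family were not tested. Of the 11 members below the median of tested genes on both wild-type arrays, 8 rose, 5 of them at least 2-fold, and 7 stood above the medians on both knockout arrays. Of the other 27 members, 20 rose, 10 of them at least 2-fold. Signal over background is not known here, so the fold of genes near the low end holds for array values only.

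The 2 wild-type arrays were alike for most members. The median size of the difference between them was 0.12 over the members and 0.11 over all genes. It exceeded 0.5 for 2 members, Acta2 (2.15) and Fhl2 (0.79), and for 1.56% of all genes, and in both the value of replicate 1 was the higher. A difference above 1 between the wild-type arrays was found for 17 of the 18820 genes, with replicate 1 higher in 16. Besides Acta2, these included 5 genes of the list of other SRF targets described below, namely Fos (by 2.55), Thbs1 (2.33), Fosb (2.26), Egr1 (1.36) and Ccn1 (1.18), all higher in replicate 1 and named after their values were seen. The others were Ptgs2, Bgn, Alb, Eid3, Snora28, Lox, Snora41, Jun, Snord16a, Bnip3 and Egln3, which are neither members nor on that list. Alb alone was higher in replicate 2. The knockout arrays differed in the same direction for Fos, Fosb and Egr1 (by 3.38, 4.26 and 1.59), by 0.31 for Ccn1, and by -0.18 and -0.37 for Acta2 and Thbs1. They also differed for Bnip3 (1.43), Egln3 (1.39), Snora28 (1.09) and Jun (0.98). For the rest of the genes outside both lists the difference ran from -0.18 (Ptgs2) to 0.55 (Eid3).

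Between the knockout arrays, most members leaned one way. Replicate 2 was the higher one for 29 of the 38 members and for 24 of the 28 that rose, where 51.2% of all genes were higher in replicate 2. The median size of the difference between the knockout arrays was 0.19 over the members and 0.11 over all genes, and it was widest for Flnc (0.67), Acta1 (0.52) and Tagln (0.48). Pdlim3, Srf, Mkl2 and Pdlim4 were the rising members with the higher value in replicate 1.

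**Figure D3:**
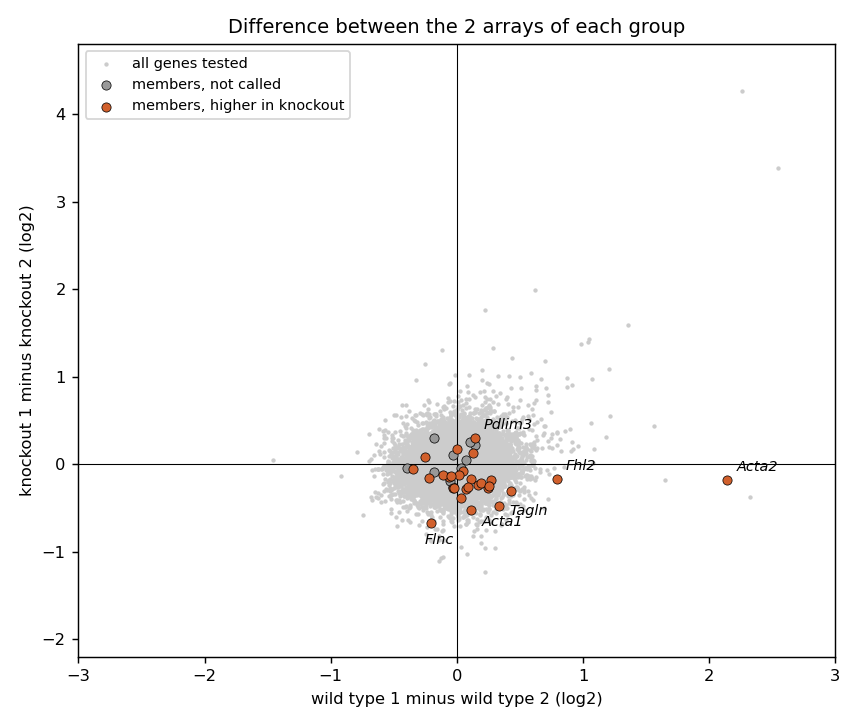
Difference between the 2 wild-type arrays (log2, horizontal axis) and between the 2 knockout arrays (log2, vertical axis) for every gene tested (grey) and for the members (large points; orange rose, dark grey did not pass). Most orange points lie below the horizontal line, where knockout replicate 2 is higher, and Acta2 stands at 2.15 on the horizontal axis.

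Around 4 members, nearby genes on the chromosome had a median change beyond 0.25 in size. For each member the median change of the 50 flanking genes above the median level was taken, in equal number before and after it. Genes were in GRCm38.p6 order and without other members. It lay within 0.25 of 0 for 34 members. It was -0.48 around Csrp1, -0.42 around Lmod1 and -0.40 around Tagln2, all on chromosome 1, and 0.50 around Pdlim2 on chromosome 14. The probe set identifiers of Csrp1 and Lmod1 lie close together, so the neighbours of these 2 genes may overlap. Csrp1 thus rose by 0.72 among neighbours that were mostly lower. The part of these neighbourhoods in the 4 genes' values was not tested. Without the 4, 26 of 34 members rose, 15 of them at least 2-fold.

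Genes of the same pathway outside the members were read from lists of their own, which share no gene with the members. Of 29 measured SRF partners and other SRF targets, 10 rose and 1 fell, beside 14.2% and 12.7% of all genes. The median change of this list was 0.47. Elk4 was the gene that fell (-0.42, limma adjusted p = 0.0283), and Elk1 differed by -0.06 without passing (adjusted p = 0.715). The largest rises were those of Thbs1 (4.22, adjusted p = 0.00408), a matrix protein, Ankrd1 (2.14, adjusted p = 4.37e-04), Tgfb1i1 (1.90, adjusted p = 5.23e-04), also called Hic-5, and Gsn, the filament-severing protein gelsolin (1.90, adjusted p = 6.46e-04). Ccn1 rose too (1.78, adjusted p = 0.0100). The immediate-early genes Fos, Fosb and Egr1 differed by 1.06, 1.14 and 1.00 without passing (adjusted p = 0.561, 0.584 and 0.263). Myocd, the coactivator of SRF in smooth and heart muscle, read 3.85 and 3.92, then 4.26 and 4.02, a difference of 0.26 (adjusted p = 0.134).

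Of 42 measured genes for actin monomers, filament turnover and crosslinking, 7 rose and 4 fell, with a median of 0.10. Over all genes 14.2% rose and 12.7% fell, and the shares of this list lie near those. Besides Gsn, the rises were led by Msn, which links actin to the membrane (1.38), Pfn2, a profilin (1.22), and Pls3, a bundling protein (1.03). The 4 falls were those of Actn3 (-0.98), Enah (-0.94), Actr3 (-0.41) and Vil1 (-0.33).

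Markers of cells that make contractile genes were read beside the members. Of 12 measured smooth muscle markers 6 rose and 1 fell (median 0.38), beside 14.2% and 12.7% of all genes. The mean level of these markers was 5.0 and 5.08 on the wild-type arrays, against 5.47 and 5.51 on the knockout arrays. The list shares 4 measured genes with the SRF targets. Besides Tgfb1i1, the rises were led by Npnt, a matrix protein (1.08), Nexn, an actin-binding protein (0.68), and Ppp1r14a, an inhibitor of myosin phosphatase (0.63), and Des, the muscle intermediate filament desmin, fell by 0.45. Npnt read 5.10 and 4.89 on the wild-type arrays, then 6.09 and 6.07 in the knockout, from below to above the array medians. Of the markers that did not pass, Myocd, Itga8, Ldb3 and Synm were below the medians in both groups, as were the members Myh11 and Lmod1. Smtn was above the medians in both groups, at 7.29 and 7.41 in the wild type, then 7.43 and 7.52. It differed by 0.13 (limma adjusted p = 0.388). Of 24 striated muscle markers 3 rose and 4 fell (median -0.15), shares that lie near the 14.2% and 12.7% of all genes. The mean levels of the striated markers were 4.96 and 4.94, then 4.88 and 4.87. Tnnc1, the troponin C of heart and slow muscle, rose by 1.19, and Myh7, a heavy chain of the same muscles, by 0.90. Actn3, the alpha-actinin of fast muscle, fell by 0.98. Myod1 and Myog, which did not pass, read between 3.47 and 4.14 on every array. Beside 14.2% and 12.7% of all genes, 3 of 8 endothelial markers rose and 3 fell. Their part in the members' rises was not tested.

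Fibroblast markers, which the feeder cells express, moved with the members. Of 24 measured, 15 rose and 0 fell in limma's fit, where 14.2% of all genes rose and 12.7% fell. These 24 markers had a median of 0.80, and 0 were lower also at an unadjusted p under 0.05. Their mean level was 5.43 and 5.31 on the wild-type arrays, against 6.10 and 6.12 on the knockout arrays. Dcn rose by 2.64, Col1a1 by 1.78, Pdgfrb by 1.58 and Vim by 1.44, while Fap, Dpt and Lum read between 2.66 and 3.24 on every array and Fn1 differed by 0.03. Simple-epithelial markers rose as well, 10 of 10, with 0 lower (also at an unadjusted p under 0.05), a median of 1.88 and mean levels of 7.49 on both wild-type arrays and 9.41 and 9.61 in the knockout. Krt8 (3.56) and Krt18 (3.36), the keratins of simple epithelia, led. The part of either cell type in the members' rises was not tested.

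**Figure D4:**
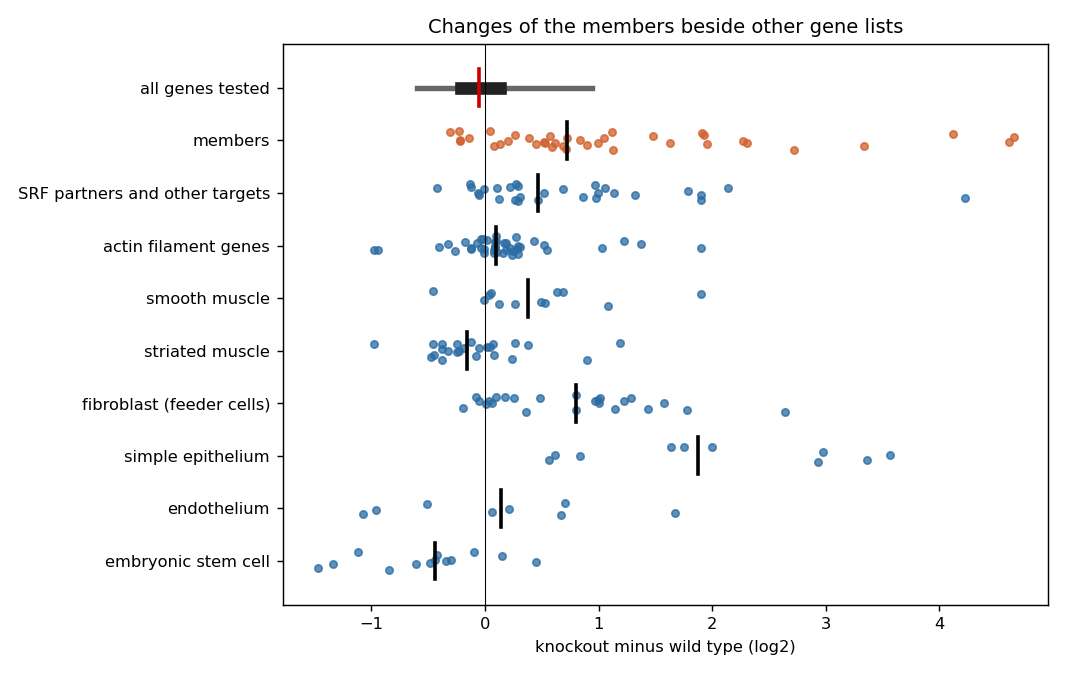
Knockout minus wild type (log2, horizontal axis) for the members (orange) and for the genes of the other lists described (blue), 1 point per gene with vertical jitter; the black bars are medians. For all genes tested, the thick bar spans the quartiles, the thin bar the central range that leaves out the extremes, and the red mark the median of -0.05, below the members' median of 0.72.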

How the data were processed

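Total RNA (250 ng per sample) from 2 wild-type and 2 Trim28 knockout samples was measured on Affymetrix Mouse Gene ST arrays; the amount and array are those of the labels' protocols. The deposited values are on a log2 scale. The submitters' processing notes name affy and RMA as the authors' tools; versions, settings and genome build are not given in the sources used here. RMA compresses differences among dim probe sets. No detection calls were used.

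Of 35556 probe sets, 21218 carried 1 gene symbol in the platform annotation, 1881 several and 12457 none. Gene identifiers of 21185 were found in GRCm38.p6, which served for names and gene order; Mkl1 and Mkl2 were matched as synonyms of Mrtfa and Mrtfb. The highest-mean probe set was kept for each of 18820 genes, with no filter on dim genes.

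Groups were compared with limma 3.58.1 (R 4.3.3; linear model and empirical Bayes step, no covariate, 2 residual and 4.70 prior degrees of freedom), two-sided, with adjustment over all genes. The fit was checked on simulated data. Promoter windows are RefSeq's. All members are accounted for, with values on every array for those changed at least 2-fold and the SRF regulators, and up to 4 called genes per other list; genes outside this rule were named after their values were seen. The members, lists and tests were chosen with earlier results of these data known. Alternatives were a replicate block, other priors, filters, scalings and probe sets, each array left out, and a threshold of 0.1. The result of 1 further gene list is not reported here. Figures were drawn with matplotlib 3.10.9.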

Additional observations from a re-analysis of the deposited data

How the results depend on the processing

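With 1 array left out, members past the threshold ranged from 18 to 27 (28 with all arrays), those changed at least 2-fold from 14 to 16 (15), and all genes called from 2430 to 4350 (5071), the lowest counts without a wild-type array; fewer samples enter those fits. Of the 28 rises, 18 kept their call in all 4 such fits, and 14 of the 15 of at least 2-fold did, Acta1 being the exception. With array medians subtracted, 8457 genes were called, 24.4% of them higher against 52.8% as deposited, because the median of all changes moved from -0.05 to -0.22. Among the members, 25 were then higher and 4 lower (Tagln2, Cnn3, Pdlim1 and Csrp2), and 12 rose at least 2-fold. After quantile normalization 26 members rose and 0 fell. With an intensity trend in the prior 27 members rose and 1 fell. With the mean of probe sets 26 rose and 1 fell, and at the threshold of 0.1, 28 rose and 1 fell. Over all genes these 3 settings called 2701, 2638 and 3185 higher and 2473, 2401 and 3316 lower. Without knockout replicate 2 the change of Tagln2 was -0.44. Sign changes among members that had not passed were those of Mylk (-0.12), Tpm3 (-0.040) and Lmod1 (-0.087) with array medians subtracted and of Tpm3 (-0.16) on its lowest-mean probe set. With 1 array left out, the change ranged from -0.042 to 0.14 for Mylk, from -0.34 to 0.055 for Myh11 and from -0.065 to 0.23 for Lmod1. On lowest-mean probe sets Actn1 (-0.11, mean level 3.49), Myh9 (0.14, mean level 4.37) and Mkl2 (0.35) lost their calls, while Pdlim1 fell (-0.52). Replicate numbers are shared between the groups, with a correlation of 0.15 between deviations of same-numbered arrays, and the labels do not say that they pair samples; with the replicate block 26 members rose, Actg2 and Pdlim4 no longer passing, and 5093 genes were called. Scanner intensities were not used here, so other background corrections were not run and signal over background is unknown.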
